A study of Mus musculus with 13 samples.

Results

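The Zbtb16 locus on mouse chromosome 9 was one of the most strongly occupied glucocorticoid receptor (GR) regions of the liver genome in these peak lists, and it held 142 of the 217044 peaks in the 7 deposited lists. The members were chosen by position: every called peak whose centre lay on mm10 chr9 inside the Zbtb16 body (chr9:48651797-48836225, 184 kb) or within 50 kb of either end. The locus was picked with its signal in these same lists known, so its rank among genes and the sizes of its peaks are given as a description. A peak within the window had to pass the authors' calling thresholds in its list, so a site that a list lacks may still carry signal below those thresholds.

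Livers of male mice were profiled by ChIP-seq, in which fragments bound by a protein are recovered with an antibody and sequenced. Control animals (genotype label GFP) and animals with a knockout that includes NCOR1 (called dKO in the titles, genotype label CRE) received vehicle (saline) or dexamethasone, a synthetic glucocorticoid, injected intraperitoneally at 1 mg/kg. Injection was at zeitgeber time 8, in hours of the light cycle, and the tissue was collected 2 h after it, at zeitgeber time 10. GR was mapped with 2 libraries for each of the 4 combinations of genotype and treatment. NCOR1 was mapped in vehicle-treated livers of each genotype with 1 library each and in dexamethasone-treated control livers with 2. Age, strain, the way GFP or Cre was delivered and the cells that carried it are not given in the labels used here. Bulk liver was used, so fewer cells with a bound site and less binding per cell cannot be told apart. GR libraries were not size selected and the NCOR1 and input libraries were, so levels are compared between lists of the same antibody only. The libraries of a group were pooled into 1 list, so the spread between animals is unknown and no difference was tested. Every interval below on a tag count or a ratio of tag counts is a 95% interval for counting error alone. Those on the share of GR peaks with NCOR1 are 95% binomial intervals over peaks. The GR lists rest on 27.5 to 31.9 M tags, M standing for mega. The NCOR1 lists rest on 17.8 M with vehicle and 36.9 M with dexamethasone in control, and on 17.5 M in dKO. GR peaks lay within 50 kb of 4 of the 4 hepatocyte genes Alb, Apoa1, Ttr and Hnf4a in the control dexamethasone list. The same held for 17372 of all 21887 protein-coding genes.

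GR is a nuclear receptor that enters the nucleus when it binds a glucocorticoid and then occupies enhancers of its target genes, many of them already accessible in that tissue. Zbtb16 encodes PLZF, a transcription factor with an N-terminal BTB domain and C-terminal zinc fingers, and it is known as a glucocorticoid-induced gene in several tissues. The BTB domain of PLZF is known to recruit corepressors, NCOR1 among them. NCOR1 is a scaffold through which the histone deacetylase HDAC3 reaches nuclear receptors and other factors.

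The GR peaks of the locus numbered 19 with vehicle and 27 with dexamethasone in control, and 21 and 24 in dKO. Of these, 12, 19, 14 and 16 lay inside the gene body. Their summed normalized tag count, in tags per 10 M sequenced tags, was 1710 with vehicle and 2278 with dexamethasone in control, and 1076 and 1488 in dKO. Both dexamethasone lists thus held more called GR signal at the locus than the vehicle list of their genotype, and both dKO lists held less than the control list of their treatment. Such sums count a peak that a list lacks as 0, so ratios of sums are given below together with the ratio over the sites called in both lists. Among 21887 protein-coding genes, with peaks counted over the same window around each body, Zbtb16 ranked 1 by summed tag count in each vehicle list and 2 in each dexamethasone list, where Fkbp5, which encodes a GR co-chaperone, ranked above it with 2465 and 1526. By number of peaks it ranked 16, 16, 4 and 7 in the same order of lists. The body is long, and peaks per 100 kb of window came to 6.68, 9.49, 7.38 and 8.44, against medians over all genes of 1.58, 1.98, 0.989 and 1.33. By this density Zbtb16 ranked 575, 190, 53 and 56. The median peak of the locus had a tag count of 27.8, 41.8, 18.3 and 26.2, against 13.3, 12, 12.4 and 10.7 over all peaks of each list. Between 38.1% (dKO vehicle) and 66.7% (control dexamethasone) of the peaks of the locus were among the strongest 10% of their list.

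The window also held part of Nnmt, which encodes nicotinamide N-methyltransferase and ends at 48607655 below Zbtb16, and all of Gm32280, a predicted gene inside the Zbtb16 body. No called GR site lay inside Gm32280. On the low-coordinate side the outermost GR peak of the control dexamethasone list was 46.7 kb from the body, with a tag count of 41.8, and the next one out lay 52.6 kb away, with 93.6. On the high-coordinate side the outermost peak inside the window was 24.3 kb from the body, with 9.32, and the next was 149 kb away, with 6.83.

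**Figure D1:**
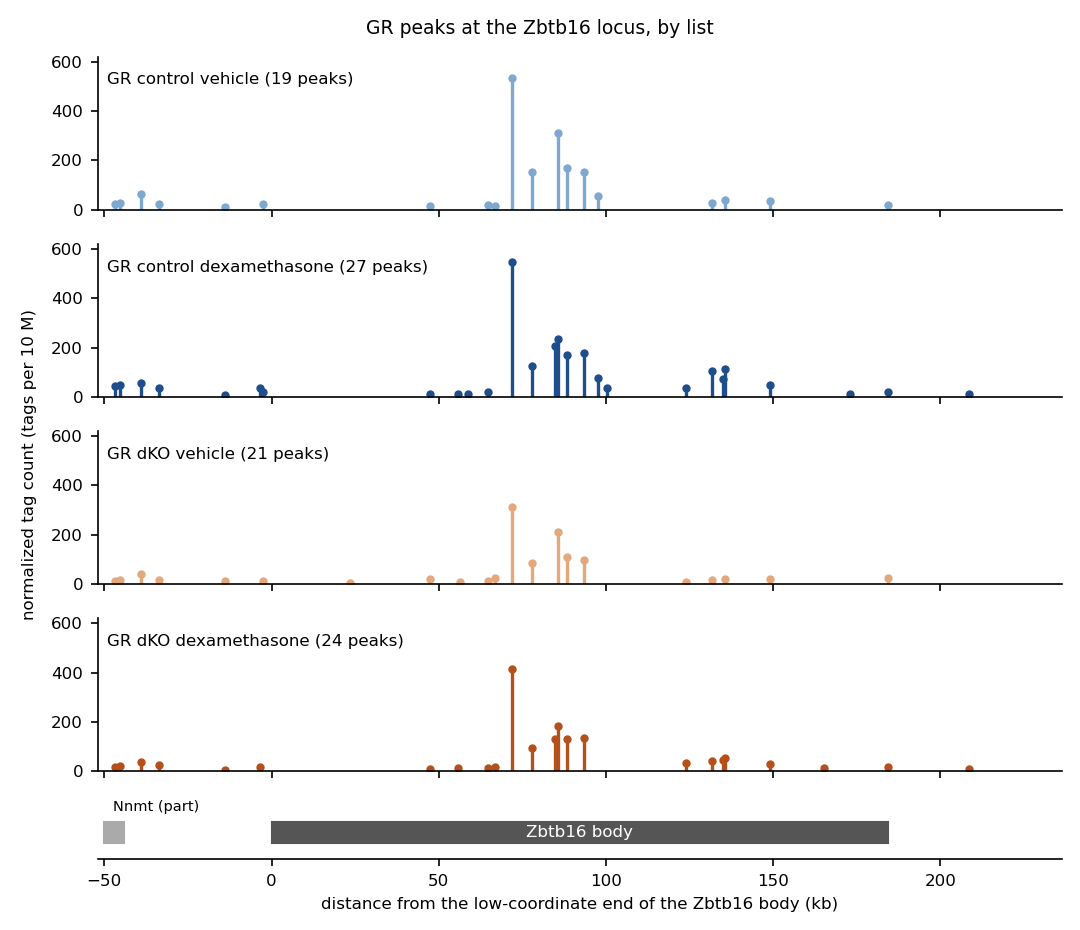
GR peaks across the Zbtb16 window in the 4 GR lists, 1 panel for each list. The x axis is the distance in kb from the low-coordinate end of the body, and the y axis is the normalized tag count in tags per 10 M. The tallest peak stands 72.0 kb into the body in every panel, at 533.1, 547.6, 311.1 and 415.3.

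Joined by overlap of at least 1 bp, the GR peaks formed 31 sites, and 16 of these were called in all 4 lists. Those 16 were 59.3% of the 27 control dexamethasone peaks of the locus, against 39.5% of all control dexamethasone peaks of the genome. Neither this share nor the later shares of peaks without a match were weighted to peak strength. The median GR peak of the locus was stronger than that of its list. A further 5 sites were called in both dexamethasone lists and in neither vehicle list, 3 in control dexamethasone alone, 2 in dKO vehicle alone, 1 in dKO dexamethasone alone and 1 in both control lists alone. The last 3 sites were each called in 3 lists, with control vehicle, control dexamethasone or dKO dexamethasone the list without them. Of the 16 sites called in every list, the highest tag count was in control dexamethasone at 9, in control vehicle at 5, in dKO vehicle at 2 and in dKO dexamethasone at 0. The lowest was in dKO vehicle at 11 of the 16 and in dKO dexamethasone at the other 5.

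The strongest site lay 72.0 kb into the body (chr9:48723659-48723891). Its GR tag count was 533.1 (506 to 561) with vehicle and 547.6 (521 to 575) with dexamethasone in control, and 311.1 (292 to 331) and 415.3 (393 to 438) in dKO. It was the 5th, 5th, 4th and 3rd strongest GR peak of those lists. The control lists were higher than the dKO lists, and dexamethasone moved the site little in control liver, where the ratio to vehicle was 1.03 (0.957 to 1.10). In dKO liver the same ratio was 1.33 (1.23 to 1.45).

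The site 85.8 kb in (chr9:48737522-48737728) carried 311.1 (291 to 333), 233.3 (217 to 251), 210.1 (194 to 227) and 184.9 (170 to 200) in the same order of lists. Here the vehicle list was the higher of the pair in both genotypes, with dexamethasone over vehicle at 0.750 (0.678 to 0.830) in control and 0.880 (0.786 to 0.986) in dKO. Only 1.1 kb below it, the site 84.7 kb in (chr9:48736407-48736618) was called in the dexamethasone lists alone, at 207.5 (192 to 224) in control and 131.6 (119 to 145) in dKO. It was the strongest dexamethasone-only site of the locus, so neighbouring sites differed in whether vehicle liver had a called peak. A peak at its position also had to exceed the tag density of the surrounding 10 kb by 4-fold, and the strong neighbour raises that density. From the deposited local values, a call there needed a tag count of about 71.8 in control vehicle and 53.8 in dKO vehicle, so the dexamethasone value of the same genotype was 2.89 times that in control and 2.45 times that in dKO. The signal in the vehicle lists can therefore be bounded, but not put at 0.

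The other 3 of the 6 strongest sites were called in all 4 lists. The site 77.9 kb in (chr9:48729570-48729783) had 151.6 with vehicle and 122.9 with dexamethasone in control, and 84.1 and 93.2 in dKO. The site 88.5 kb in (chr9:48740174-48740383) had 169.5, 170.0, 111.3 and 129.0. The site 93.4 kb in (chr9:48745110-48745358) had 154.0, 177.8, 98.4 and 132.6. At each of these the 2 control values were above the 2 dKO values, and the ratio of dexamethasone to vehicle in control liver lay between 0.811 and 1.15.

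The strongest site missing from both dKO lists lay 97.6 kb in (chr9:48749252-48749464), with 56.6 (47.9 to 66.0) in control vehicle and 74.3 (64.8 to 84.7) in control dexamethasone. It stood 5.44-fold and 5.35-fold over its local density in the control lists, close to the 4-fold minimum. A call was estimated to need about 45.1 in dKO vehicle and 57.1 in dKO dexamethasone. These estimates come from the site 93.4 kb in, 4154 and 4133 bp away, farther than the distances at which the estimate was checked. Whether a signal lowered to 0.639 and 0.746 of control, as at that site, would have been called cannot be told.

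These sites belong to a central stretch that starts 64.9 kb into the body, with 10 sites in 35.7 kb; the stretch, like those that follow, was marked out after its values were seen. It held 82.5% of the GR signal of the locus with vehicle and 69.7% with dexamethasone in control, and 79.1% and 75.0% in dKO. Its summed tag count was 1410, 1587, 851 and 1116. Those sums cover 8 called sites in control vehicle and 9 in control dexamethasone, at a mean of 176.2 and 176.3 for each site, and 7 and 8 in dKO, at a mean of 121.6 and 139.5. Dexamethasone over vehicle was 1.13-fold for the sums in control and 1.31-fold in dKO, and over the 7 sites called in both lists of a genotype it was 0.963 and 1.16. In control the sum was therefore higher with dexamethasone only with the sites that 1 of the 2 lists lacked, among them the one 84.7 kb in.

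**Figure D2:**
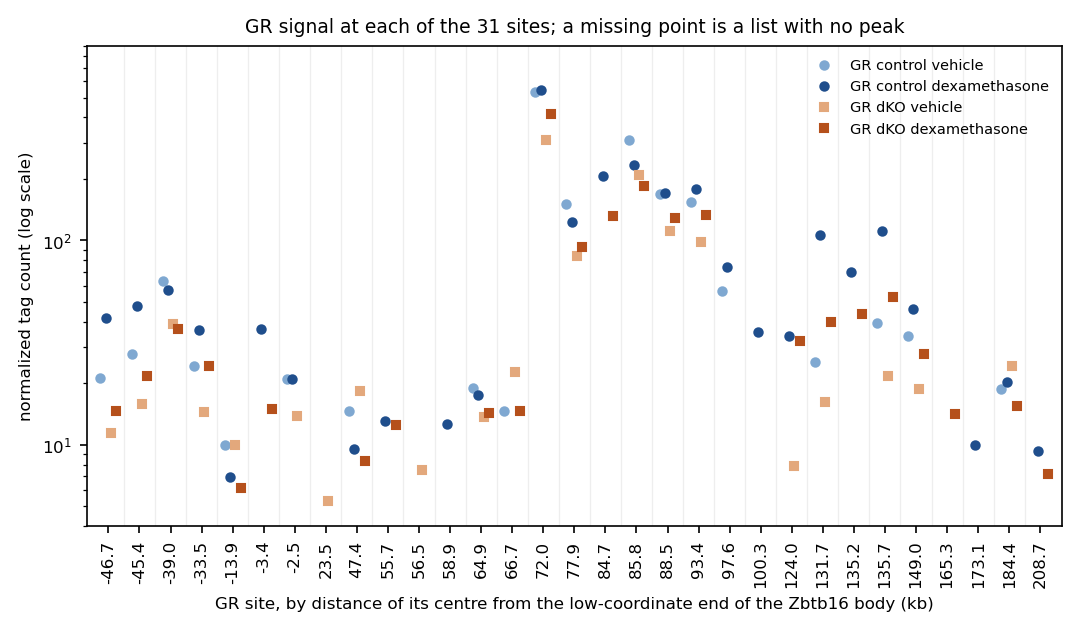
Normalized tag count of GR (y axis, log scale, tags per 10 M) at each of the 31 sites, placed along the x axis by distance in kb from the low-coordinate end of the body, with 1 point for each list that called the site. At the 6 strongest sites the control points lie above the dKO points of the same treatment, and the points that spread most between treatments belong to the sites 124 to 136 kb in.

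A second stretch, 120 to 150 kb into the body, behaved differently, and contained the highest ratios of dexamethasone to vehicle among the matched sites of the locus. Its 5 sites in 25.2 kb summed to 98.8 in control vehicle, where 3 were called, and to 368 in control dexamethasone, where 5 were, 3.72-fold higher. In dKO they summed to 64.6 over 4 called sites and 196 over 5, 3.04-fold higher. The mean for each called site was 32.9 and 73.6 in control and 16.1 and 39.3 in dKO. Over the sites called in both lists the ratio was 2.67 in control (3 sites) and 2.36 in dKO (4 sites). The share of the stretch in the GR signal of the locus was 5.78% in control vehicle and 16.2% in control dexamethasone, and 6.0% and 13.2% in dKO. The sites named in this stretch, other than the dexamethasone-only one 135.2 kb in, were chosen after their values were seen.

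At the site 131.7 kb in (chr9:48783362-48783593) the GR tag count was 25.3 (19.5 to 31.8) with vehicle and 106.1 (94.9 to 119) with dexamethasone in control, and 16.2 (11.9 to 21.2) and 39.8 (33.2 to 47.4) in dKO. The control dexamethasone value stood above the other 3, and the ratio to vehicle was 4.19 (3.25 to 5.57) in control and 2.46 (1.77 to 3.51) in dKO. Across all 24576 sites matched between the control lists, 1.2% had a higher ratio. At the site 135.7 kb in (chr9:48787385-48787602) the values were 39.3, 111.1, 21.7 and 52.7, with ratios of 2.83 (2.27 to 3.55) in control and 2.43 (1.81 to 3.25) in dKO. The site 135.2 kb in (chr9:48786856-48787085), 0.5 kb below it, was called in the dexamethasone lists alone, at 70.4 (61.1 to 80.4) in control and 43.7 (36.6 to 51.4) in dKO. A call there needed about 15.8 in control vehicle and 12.3 in dKO vehicle, and the dexamethasone value of the same genotype was 4.47 and 3.55 times these. The site 124.0 kb in (chr9:48775709-48775930) was not called in control vehicle and had 34.1 (27.7 to 41.2) in control dexamethasone, 7.87 (5.20 to 11.9) in dKO vehicle and 32.3 (26.4 to 39.2) in dKO dexamethasone. Its ratio in dKO was 4.10 (2.58 to 6.50), which 0.726% of the 18330 sites matched between the dKO lists exceeded, and the 2 dexamethasone lists differed by less than their counting intervals.

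The remaining sites among the 4 strongest that control dexamethasone gained over control vehicle lay outside this second stretch. The one 3.4 kb outside the low-coordinate end of the body (chr9:48648295-48648501) had 36.8 (30.4 to 44.5) in control dexamethasone and 14.9 (11.1 to 20.0) in dKO dexamethasone, and was called in neither vehicle list, where a call needed about 9.81 and 8.62. The one 100.3 kb in (chr9:48752035-48752235), the last site of the central stretch, had 35.6 (29.2 to 43.1) in control dexamethasone alone. A call in control vehicle was put at about 46.1, from a peak 2783 bp away, a distance at which the estimate was not checked. In control dexamethasone the site was called at 35.6, 5.82-fold over its local density, against a minimum of 4-fold. The limit in control vehicle is thus uncertain, and whether the signal differed there cannot be told.

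Over the whole locus, 18 sites were matched between the control lists. The ratio of dexamethasone to vehicle was 2-fold or more at 2 of them, 11.1%, against 11.5% of all matched sites and 20.3% at the same strength, and lower by 2-fold or more at 0, against 2.43%. By any amount it was higher at 11 and lower at 6, against 53.3% and 46.4% of all. Lower ones were 25.8% at the same strength. The median log2 ratio was 0.08 at the locus and 0.07 over all matched sites. Stronger sites had higher ratios genome-wide: over all matched sites weighted to the strength of those at the locus the median was 0.41. The matched sites were thus near the background of all sites in control liver. Their median was under that of equally strong ones, a gap over 18 sites that was not tested. The larger sum came mostly from added peaks, since the matched sites summed to 1.09 times vehicle and all peaks to 1.33 times. Of the 27 control dexamethasone peaks, 9 had no control vehicle peak, 33.3% against 39.8% of all, and 1 of 19 control vehicle peaks had no dexamethasone peak, 5.26% against 18.1%.

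In dKO liver 18 sites were matched, and the ratio of dexamethasone to vehicle was 2-fold or more at 3, 16.7%, against 7.61% of all matched sites and 16.9% at the same strength, so their share was that of equally strong sites. Those were the sites 124.0, 131.7 and 135.7 kb in. It was lower by 2-fold or more at 1, the weak site 47.4 kb in, against 8.63% of all. By any amount 12 were higher and 6 lower, against 45.9% and 53.8% of all and, for lower, 37.1% at the same strength. Their median log2 ratio was 0.29, against -0.11 over all matched sites and 0.20 when these were weighted to the same strength. Of 24 dKO dexamethasone peaks, 6 had no vehicle peak, 25.0% against 35.4% of all, and 3 of 21 vehicle peaks had no dexamethasone peak, 14.3% against 21.5%. Whether the response to the drug differed between the genotypes was not tested, since each group was 1 pooled list.

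Between genotypes, with each list used again from the comparisons above, GR was lower in dKO at most matched sites. Under vehicle 15 of 18 were lower in dKO by any amount, against 68.2% of all matched sites and 72.4% at the same strength. The other 3 were higher, against 31.1% of all. None of the 18 passed 2-fold lower, against 7.44% of all and 13.1% at the same strength. None passed 2-fold higher, against 0.133% and 0.148%. The median log2 ratio was -0.64, against -0.19 over all matched sites and -0.32 at the same strength. The site 72.0 kb in had a ratio of 0.584 (0.538 to 0.634), with 13.9% of all matched sites lower. The vehicle peaks nearly coincided: 1 of 19 control peaks had no dKO peak, 5.26% against 35.1% of all, and 3 of 21 dKO peaks had no control peak, 14.3% against 16.6%. Peaks of the same strength were not compared for these shares.

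Under dexamethasone 22 of 22 matched sites were lower in dKO than in control, against 83.2% of all and 91.0% at the same strength. Of all matched sites 16.3% were higher in dKO. The difference was 2-fold or more at 5 of the 22, 22.7%, against 12.1% of all and 18.3% at the same strength. None was 2-fold higher in dKO, against 0.324% of all. The median log2 ratio was -0.41, against -0.42 over all matched sites and -0.60 at the same strength. It was thus near that of all sites. It was less negative than that of equally strong ones, a gap that was not tested. The 5 were the dexamethasone-responsive sites 131.7 and 135.7 kb in, at 0.375 (0.303 to 0.462) and 0.474 (0.391 to 0.571), the site just below the body at 0.405 (0.284 to 0.576), and the 2 sites within the Nnmt body. At the Nnmt site at chr9:48604998-48605253 the GR tag count was 21.3 with vehicle and 41.8 with dexamethasone in control, and 11.4 and 14.7 in dKO. Summed over the sites called in both dexamethasone lists, dKO was at 0.745 of control for the 6 strongest sites, 0.534 for the 5 sites of the upper stretch and 0.522 for 6 sites on the Nnmt side of the body. Of 27 control dexamethasone peaks 5 had no dKO peak, 18.5% against 39.5% of all, and 2 of 24 dKO peaks had no control peak, 8.33% against 12.9%. The share of all tags that fell in peaks was 5.0% and 7.23% in the control lists and 3.4% and 4.1% in the dKO lists, in the order vehicle and dexamethasone; its part in the lower dKO values was not tested.

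**Figure D3:**
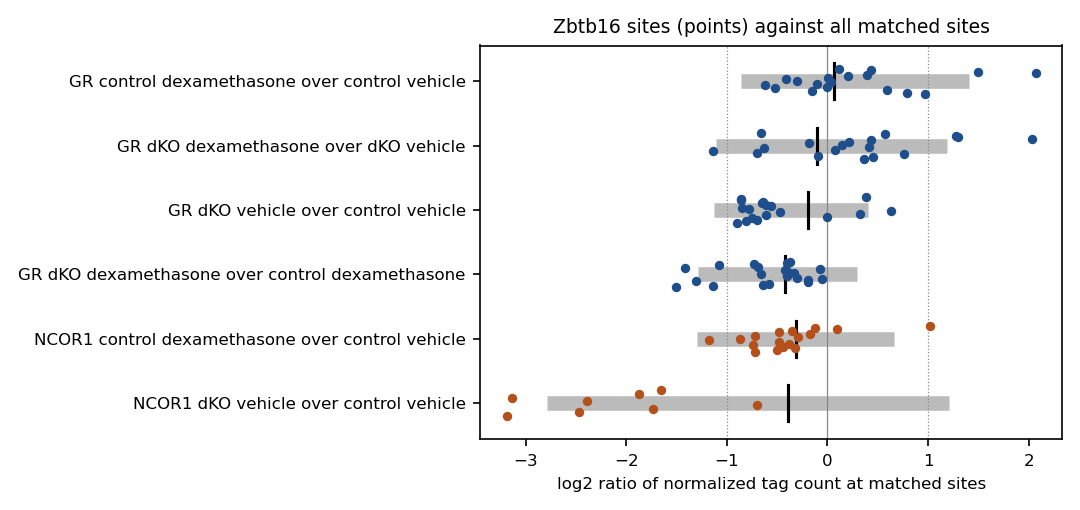
Log2 ratio of normalized tag count (x axis) at sites matched between the lists of each of 6 comparisons (y axis). Points are the sites of the Zbtb16 locus, and each grey bar runs from the 5th to the 95th percentile of all matched sites of the same lists, with a black line at their median. The 22 GR points for dKO over control under dexamethasone lie below 0, and 7 of the 8 NCOR1 points for dKO over control lie below -1.

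NCOR1 occupied the same locus. Its peaks numbered 23 in control vehicle, 18 in control dexamethasone and 10 in dKO vehicle, with summed tag counts of 1002, 655 and 132. These formed 26 sites: 8 in all 3 lists, 9 in both control lists, 6 in control vehicle alone, 1 in control dexamethasone alone and 2 in dKO vehicle alone. By summed NCOR1 signal Zbtb16 ranked 11, 16 and 283 among protein-coding genes. The control vehicle and dKO vehicle lists rest on 1 library each.

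The strongest NCOR1 site, 94.9 kb into the body (chr9:48746540-48746775), had 184.3 (165 to 206) in control vehicle, 163.9 (151 to 178) in control dexamethasone and 20.9 (14.9 to 29.2) in dKO vehicle. It overlapped no GR peak of any list, and the nearest GR site was 1.2 kb away. With that neighbour counted in the local density, a GR call there needed about 45.1 to 71.2 tags per 10 M, depending on the list. The ratio of dexamethasone to vehicle was 0.889 (0.775 to 1.02) and of dKO to control 0.113 (0.0794 to 0.162), with 2.35% of all matched sites lower.

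The next strongest NCOR1 sites did coincide with GR. The one 93.4 kb in (chr9:48745135-48745349), on one of the 6 strongest GR sites, had 88.6 (75.1 to 103) in control vehicle, 53.8 (46.7 to 61.9) in control dexamethasone and 16.9 (11.6 to 24.5) in dKO. The one in the Nnmt body (chr9:48605048-48605269) had 57.4 (46.8 to 69.7), 34.9 (29.2 to 41.5) and 6.30 (3.14 to 11.3). The one 77.9 kb in (chr9:48729588-48729799) had 56.3 (45.8 to 68.4) in control vehicle and 24.9 (20.1 to 30.6) in control dexamethasone, and was not called in dKO. NCOR1 was lower with dexamethasone at each of the 3, with ratios of 0.607 (0.493 to 0.757), 0.608 (0.466 to 0.797) and 0.442 (0.330 to 0.594). On the strongest GR site, 72.0 kb in, NCOR1 had 50.4, 36.0 and 15.2, so the order of NCOR1 levels among sites was not that of GR. At the dexamethasone-responsive GR site 135.7 kb in, NCOR1 was called in control dexamethasone alone, at 17.1 (13.1 to 21.8). A call in control vehicle was estimated to need about 9.84, from a peak 2405 bp away.

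Of 17 NCOR1 sites matched between the control lists, 15 were lower with dexamethasone, against 71.1% of all and 75.6% at the same strength. The other 2 were higher, against 28.4% of all. The median log2 ratio of the 17 was -0.45, against -0.31 over all and -0.40 at the same strength. A change of 2-fold or more was seen at 1 site downward, 5.88% against 12.2% of all and 13.3% at the same strength. It was seen at 1 upward, against 1.52% and 1.30%: the weak site 208.8 kb from the low end, with 8.16 and 16.5. Of 23 control vehicle peaks 6 had no dexamethasone peak, 26.1% against 32.8% of all, and 1 of 18 dexamethasone peaks had no vehicle peak, 5.56% against 29.6%.

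In dKO liver NCOR1 signal was lower than in control at 8 of 8 matched sites. Of all matched sites 65.2% were lower and 34.6% higher, and at the same strength 84.1% were lower. The signal at the locus was 2-fold or more lower at 7 of the 8, 87.5%, against 31.5% of all matched sites and 62.1% at the same strength. None was 2-fold higher, against 8.19% of all. The median was -2.13 on the log2 scale, against -0.39 over all and -1.46 at the same strength. The exception was the site 88.5 kb in, where control vehicle had 44.7 and dKO 27.5, a ratio of 0.615 (0.423 to 0.896). Of 23 control vehicle peaks, 15 were not called in dKO, 65.2% against 79.5% of all, and 2 of 10 dKO peaks had no control peak, 20.0% against 53.1%. NCOR1 peaks thus persisted in the dKO list at the locus. The 10 dKO peaks summed to 0.132 of the 23 control vehicle peaks, and over the 8 sites called in both lists the ratio was 0.213; the fraction of cells that lost NCOR1 is not given in the labels used here.

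**Figure D4:**
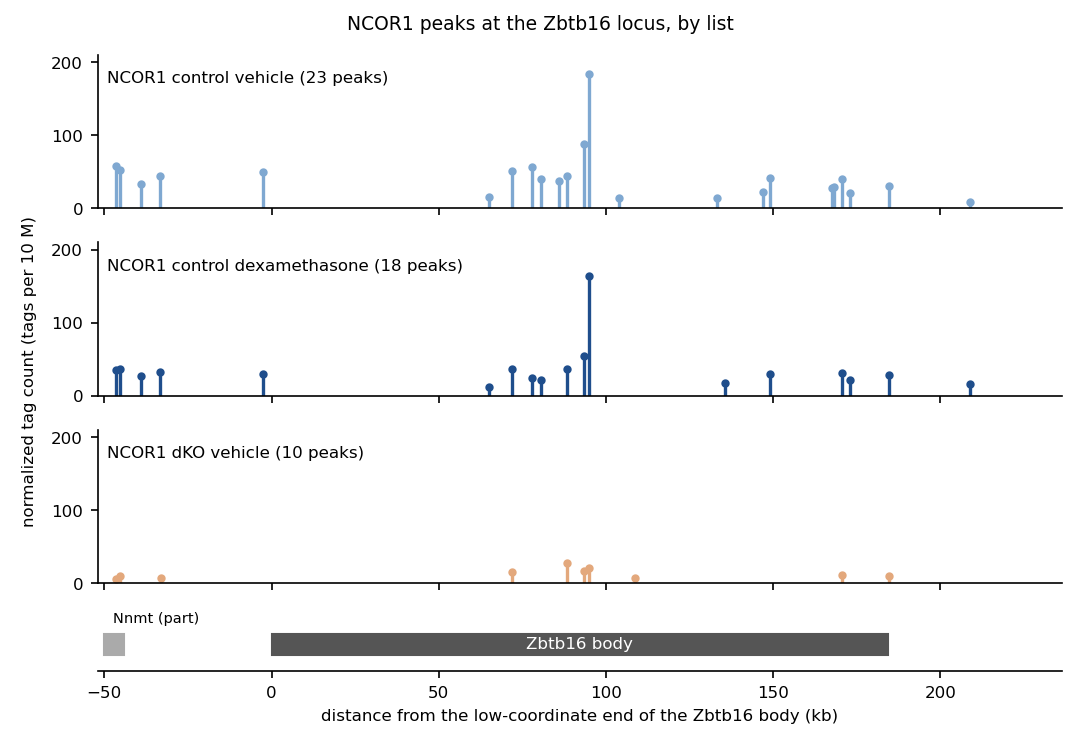
NCOR1 peaks across the Zbtb16 window in the 3 NCOR1 lists, 1 panel for each list, with distance in kb from the low-coordinate end of the body on the x axis and normalized tag count in tags per 10 M on the y axis. The peak 94.9 kb in reaches 184.3 and 163.9 in the control panels and 20.9 in dKO, and no dKO peak exceeds 27.5.

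The share of GR peaks with NCOR1 was set beside that of all GR peaks and was not tested against it. In control vehicle 12 of 19 GR peaks overlapped an NCOR1 peak, 63.2% (38.4 to 83.7, Clopper-Pearson), against 54.3% of all GR peaks and 52.4% of those of the same strength. In control dexamethasone 14 of 27 did, 51.9% (31.9 to 71.3), against 48.9% and 63.9%. In dKO vehicle 6 of 21 did, 28.6% (11.3 to 52.2), against 17.1% and 14.1%. Each interval contains the share over all GR peaks. The intervals treat peaks as independent, which peaks of 1 locus are not, so they decide nothing about a difference. From the side of NCOR1, 12 of 23 control vehicle peaks overlapped GR, 52.2% against 41.3% of all, and 14 of 18 control dexamethasone peaks did, 77.8% against 53.0%. In dKO vehicle 6 of 10 did, 60% against 23.1%. These shares were not weighted to peak strength or to the density of GR peaks, which was above the median of all genes here. Both dexamethasone-only GR sites with the highest signal, 84.7 and 135.2 kb in, overlapped no NCOR1 peak in any list. Lacking NCOR1 was common, since 48.9% of all control dexamethasone GR peaks overlapped a control dexamethasone NCOR1 peak. The weak dexamethasone-only site 208.7 kb from the low end did overlap an NCOR1 site. The nearest NCOR1 site to that 135.2 kb in was 294 bp away, and no NCOR1 calling limit was estimated at either position.

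Set beside 4 other GR-bound genes measured the same way, the summed GR tag count was higher with dexamethasone at Zbtb16 by 1.33-fold in control and 1.38-fold in dKO, and by 1.09-fold and 1.2-fold over the 18 sites called in both lists of each genotype. At Fkbp5 it went from 1533 over 14 peaks to 2465 over 19 in control, 1.61-fold, and from 699 over 12 to 1526 over 16 in dKO, 2.18-fold. Over matched sites the Fkbp5 ratios were 1.34 and 1.85. At Tat, which encodes the glucocorticoid-induced tyrosine aminotransferase, the sums were 370 over 6 peaks and 545 over 7, 1.47-fold, and 123 over 5 and 346 over 6, 2.81-fold, with 1.45 and 2.48 over matched sites. At Ppargc1a, a coactivator of gluconeogenic genes, they were 225 over 16 peaks and 444 over 28, 1.97-fold, and 117 over 10 and 158 over 15, 1.35-fold. Over matched sites Ppargc1a had 1.26 in control and 0.980 in dKO, so its higher sums lay mainly in peaks that the vehicle lists lacked. At Per1, a circadian clock gene, the sums were 521 and 527 over 4 peaks each, 1.01-fold, and 428 and 419 over 3 each, 0.978-fold. The vehicle level in dKO relative to control was 0.630 for the sums and 0.639 over matched sites at Zbtb16, 0.456 and 0.466 at Fkbp5, 0.333 and 0.364 at Tat, 0.519 and 0.759 at Ppargc1a and 0.822 and 0.846 at Per1.

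Of 25 other listed GR target genes, 3 had a summed GR tag count 2-fold or more higher with dexamethasone in control, 12% against 17.9% of all genes with peaks in both lists, and 0 were lower by as much, against 2.64%. These were Pdk4 at 4.02-fold, a kinase that restrains pyruvate oxidation, Ddit4 at 2.42-fold, an inhibitor of mTORC1, and Arrdc2 at 2.19-fold. Over the sites called in both lists these had 2.89, 2.42 and 2.00. In dKO 9 of 24 were higher by as much, 37.5% against 12.3% of all, and 1 was lower by as much, Bcl6 at 0.418-fold, against 8.94%. Summed over matched sites alone, 4 of 25 were 2-fold or more higher in control, 16.0% against 5.89% of all genes, and 8 of 23 in dKO, 34.8% against 3.81%. In control the list thus lay below the background of all genes by one sum and above it by the other. The median log2 ratio over the list was 0.53 in control and 0.57 in dKO, against 0.33 and 0.01 over all genes, and Zbtb16 had 0.41 and 0.47. The windows of neighbouring genes such as Mt1 and Mt2 share peaks.

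For dKO over control, 10 of 24 listed genes were 2-fold or more lower under vehicle, 41.7% against 19.2% of all, and 4 of 25 under dexamethasone, 16.0% against 33.9%; 0 were 2-fold higher, against 0.757% and 0.621% of all. Over matched sites the lower ones were 7 of 23 under vehicle, 30.4% against 4.02%, and 0 of 25 under dexamethasone, against 7.03%. Summed NCOR1 tag count was 2-fold or more lower with dexamethasone at 7 of 25, 28% against 17.2% of all, and in dKO at 22 of 24, 91.7% against 65.8%. None was 2-fold higher, against 2.75% and 4.62%. Over matched sites the lower ones were 1 of 25 with dexamethasone, 4.0% against 4.98%, and 11 of 22 in dKO, 50.0% against 28.5%.

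Among the other 40 genes whose symbol starts with Zbtb, most of them transcription factors with a BTB domain, 39 had a control dexamethasone GR peak in their window. Of all 21887 protein-coding genes 17372 had such a peak. Zbtb20, a regulator of liver gene expression, was next after Zbtb16 in summed GR tag count, with 1090 in control dexamethasone against 2278. Its sum was 2.84-fold higher with dexamethasone in control and 2.67-fold in dKO, and 2.10-fold and 2.31-fold higher over matched sites. Of 38 with peaks in both control lists, 3 were 2-fold or more higher, 7.89% against 17.9% of all genes: Zbtb20, Zbtb46 at 2.21-fold and Zbtb41 at 2.09-fold. Over matched sites 2 of 37 were, 5.41% against 5.89% of all, and Zbtb46 had 1.59. The family's median log2 ratio of sums was 0.20 in control and -0.03 in dKO, below the 0.41 and 0.47 of Zbtb16.

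The genes whose summed GR signal was most like that of Zbtb16 over the 4 lists, by the largest difference in the 3 log2 ratios to control vehicle, were Gm5820 (0.03), Ttll8 (0.04), Frmd4b (0.04), Tsc22d3 (0.05) and Trim2 (0.06). They were taken from 1223 genes with at least 10 control dexamethasone peaks in their window, of which 132 lay within 0.25, so the pattern was a common one. These ratios are of sums over all called peaks.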

How the data were processed

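The deposited files are 7 HOMER peak lists, 1 for each group, and the libraries of a group were pooled, since their labels all name the group's list. The submitters' processing notes name Trim Galore 0.6.4, BWA 0.7.17, HOMER 4.11, bedtools 2.29.2 and mm10. Per the file headers, peaks had a fixed width of 200 bp and were called against input at 4-fold over input and 4-fold over the local 10 kb, with a Poisson p-value limit of 0.0001. A threshold of 15 tags is written in the GR headers. The normalized tag count is the authors' signal in tags per 10 M. The deposited ratio (fold) over input and over local density, and the findPeaks score, are the authors' values per peak and were used to filter or describe peaks.

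Peaks were matched by at least 1 bp of overlap, with Python 3.11.15, numpy 2.4.6, pandas 2.3.3 and scipy 1.17.1. Tags were recovered as tag count times the tag total in the header. Intervals are exact Poisson intervals for a level, exact conditional binomial intervals for a ratio and Clopper-Pearson intervals for a share, all at 95%. Depth limits weak peaks: 15 tags are 4.70 to 5.46 tags per 10 M in the GR lists. With 1 pooled list for each group no test was made. Sums over a window were also taken over matched sites alone, added after seeing the data. Backgrounds of the same strength weight all matched sites to the locus over 10 classes of the geometric mean tag count, added after seeing the data, or all GR peaks of a list over 5 classes of tag count. The least tag count for a call was estimated from the local density of the nearest called peak. This formula was off by -0.451% to 4.19% on 9 pairs of neighbouring GR peaks. The neighbours used for the GR sites 97.6 kb in (4154 and 4133 bp) and 100.3 kb in (2783 bp) were farther away than in any of these pairs. So was that for NCOR1 135.7 kb in (2405 bp), and the formula was not checked at such distances.

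Named sites were the 6 strongest GR sites, the 4 strongest that control dexamethasone gained over vehicle, the strongest missing from both dKO lists and the 4 strongest NCOR1 sites. Gene bodies come from a RefSeq table on GRCm38.p6, the assembly mm10 names, without strand; exons and introns were not used here. The locus, rules and gene lists were chosen with earlier results of these data known. Matching was tested on simulated data.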

Additional observations from a re-analysis of the deposited data

Results flagged for a closer look

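At 3 GR sites the direction of dexamethasone over vehicle was opposite in the 2 genotypes, and this difference was not tested, since each group was 1 pooled list. At the site 77.9 kb into the body, among the 6 strongest, the tag count was 151.6 in vehicle and 122.9 in dexamethasone in control, and 84.1 and 93.2 in dKO, a difference of 0.45 between the log2 ratios (dKO minus control). The counting interval of its ratio was 0.703 to 0.936 in control and 0.934 to 1.31 in dKO, and the second includes 1. At the site 64.9 kb in (chr9:48716539), the values were 18.9 and 17.6 in control and 13.6 and 14.3 in dKO, a difference of 0.18, and both intervals include 1 (0.624 to 1.39 and 0.688 to 1.66). At the site on the high-coordinate end of the body (chr9:48836102), they were 18.7 and 20.3 in control and 24.4 and 15.4 in dKO, a difference of -0.78, with an interval of 0.742 to 1.62 in control, which includes 1, and 0.430 to 0.913 in dKO. At none of the 3 did both intervals lie away from 1.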

How the results depend on the processing

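Of 124 values recomputed under an alternative, 97 stayed within the limits set for the main value and 27 moved. The median log2 ratio of GR dKO over control under dexamethasone changed sign, from -0.41 to 0.012, after division by the median ratio of all matched sites. Matching by 100 bp or by centres within 400 bp, a window of 100 kb and, added after seeing the data, the findPeaks score in place of the tag count moved none. With the gene body alone, peaks numbered 12 for GR control vehicle, 11 for NCOR1 control dexamethasone and 6 for NCOR1 dKO. Peaks at 8-fold over local density numbered 15 for GR control vehicle, 15 for control dexamethasone, 13 for dKO vehicle and 11 for dKO dexamethasone. At that limit neither dexamethasone list held more GR peaks of the locus than the vehicle list of its genotype. NCOR1 peaks at that limit numbered 11, 9 and 2 in control vehicle, control dexamethasone and dKO. At 8-fold over input NCOR1 dKO had 6. Past 1.5-fold instead of 2-fold were 6 sites for control dexamethasone over vehicle (5 higher, 1 lower) and 8 for dKO dexamethasone over vehicle (4 higher, 4 lower). For GR dKO over control they were 13 under vehicle (1 higher, 12 lower) and 9 under dexamethasone (0 higher, 9 lower). For NCOR1 dexamethasone over vehicle they were 6 (1 higher, 5 lower). At 8-fold over input the sites past 2-fold in either direction were 1 for dKO dexamethasone over vehicle, 1 for NCOR1 dexamethasone over vehicle and 4 for NCOR1 dKO over control. In the body alone they were 2 for GR dKO over control under dexamethasone, 1 for NCOR1 dexamethasone over vehicle and 4 for NCOR1 dKO over control. After division by the median ratio of all matched sites, the median log2 ratio was -0.45 for GR dKO over control under vehicle and -0.13 for NCOR1 dexamethasone over vehicle, and the sites past 2-fold were 1 for GR dKO over control under dexamethasone and 1 for NCOR1 dexamethasone over vehicle. Counting only NCOR1 peaks that overlap no dKO peak, 36.8% of GR control vehicle peaks held NCOR1. The causes were not tested. No paired analysis was possible because the replicates of each group were pooled in 1 list, and for the same reason no replicate could be left out. Depth limits which weak peaks were called.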
